A study of Mus musculus with 30 samples.

Results

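THY1-enriched testis cells of mice at postnatal day 12 were compared with THY1-enriched cells at postnatal day 7, the ages written P12 and P7. The comparison used 4 of the 30 samples of the series: 2 RNA libraries of P12 THY1 cells and 2 of P7 THY1 cells. In the deposited table each pair of libraries had been reduced to 1 column, so P12 THY1 and P7 THY1 each had 1 value for each of 20889 genes. All mice were C57BL/6 with no treatment named in the labels. Cells were held back on magnetic beads carrying an antibody to CD90.2, which is THY1. For the other columns, beads against CD117, the KIT receptor, gave P12 KIT and P7 KIT cells (2 libraries each), and P0 THY1 and P14 THY1 stood for 2 libraries and 1 library. P7 ID4-GFP and P7 OCT4-GFP cells (1 library each) were sorted by fluorescence for a reporter of a germ cell gene. A further single library was labelled P7 VASA THY1, but the protocol names VASA-GFP cells only at birth, so its age is uncertain and it is used as labelled. The number of mice behind a library is not given in the sources used here. Beads enrich cells and do not purify them, and THY1 is also carried by stromal cells and lymphocytes.

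In the mouse testis, spermatogonial stem cells and their early progeny, the undifferentiated spermatogonia, carry THY1 and the GDNF receptor. Retinoic acid drives them to differentiate, when they gain KIT, and later to start meiosis, in which chromosomes pair along the synaptonemal complex and exchange DNA. Sertoli cells are the somatic cells that surround and feed the germ cells. In the first weeks of life the first wave of germ cells moves together from spermatogonia into meiosis, while Sertoli cells stop dividing, mature, and close the blood-testis barrier with tight junctions.

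Expression is in FPKM, which scales the fragments of a gene by its transcript length and by the mapped fragments of the library. A difference is that of log2(FPKM + 1), P12 THY1 minus P7 THY1, so a positive value is a higher level in P12 THY1, and the added 1 makes the scale understate differences of weakly expressed genes. Numbers in brackets with no unit are these differences. With 1 value in each column there was no replicate spread, no test was run, and each difference describes these libraries alone. A gene was counted at 4-fold when its difference was 2 or more in size, or at 2-fold when it was 1 or more, with at least 5 FPKM in the higher column. Gene lists are given by their members with at least 1 FPKM in P12 THY1 or P7 THY1.

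Transcripts of meiotic prophase genes stood higher by their median in P12 THY1 than in P7 THY1. Against P7 VASA THY1 that median was -0.34. Transcripts of Sertoli cells stood higher against both, with a larger median difference. P12 THY1 had lower levels of genes of cell division, ribosomal proteins and stem cell signalling. It held almost none of the protamine transcripts, the beta globin Hbb-b2 and most mast cell and granulocyte transcripts present in P7 THY1. Of 13447 genes with at least 1 FPKM, 97 were counted at 4-fold as higher in P12 THY1 (0.721%) and 40 as lower (0.297%). At 2-fold, 611 were higher (4.54%) and 232 lower (1.73%). The median difference of all these genes was 0.04, and 90% of them lay between -0.77 and 1.07. Pearson's r between the columns was 0.935 across genes, which are not independent replicates.

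These counts depend on which P7 cells are used. Against P7 VASA THY1 in place of P7 THY1, 378 genes were higher and 23 lower in P12 THY1 at 4-fold, and 21 of the 378 and 3 of the 23 were among the 97 and the 40. The 3 were Tex14, Celf2 and Rpph1, each listed at 0 in P12 THY1, and a value of 0 can be a failed estimate. Of the 97 genes, 84 were higher in P7 VASA THY1 than in P7 THY1 (50.9% of all genes were). Of the 40, 39 were lower there (49.1% of all genes were), 30 of them under 1 FPKM. A choice of genes by their P7 THY1 value favours both counts.

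The sort markers differed little between P12 THY1 and P7 THY1. Thy1 itself stood at 1.17 FPKM in P12 THY1 and 1.64 FPKM in P7 THY1, a low level for the gene that defined the selection, against 18.3 FPKM in P0 THY1. Kit stood at 15.4 FPKM in P12 THY1 and 21.3 FPKM in P7 THY1, below the KIT columns (72.5 FPKM at P12 and 78.9 FPKM at P7). Ddx4, which encodes the germ cell RNA helicase VASA, stood at 113 and 120 FPKM in P12 THY1 and P7 THY1, and Zbtb16, a transcription factor of undifferentiated spermatogonia, at 61.1 and 65.8 FPKM in P12 THY1 and P7 THY1. The FPKM of 18 pan-germ-cell genes summed to 1852 in P12 THY1 and 1874 in P7 THY1, with a median difference of 0.01. Of the 18, 9 lay above 0 and 9 below, and 4 were higher at 2-fold (4.54% of all genes were) and none lower. The 4 were Hormad1 and Sycp1, which are also in the synaptonemal complex list, Tex101, a germ cell surface protein, and Ybx2, an RNA-binding protein that stores messages, which changed sign against P7 VASA THY1 (-0.014). The label spermatogonia does not cover all the RNA. The FPKM of 26 Sertoli markers summed to 4025 in P12 THY1 and 1807 in P7 THY1, against 471 in P7 ID4-GFP. In RNA of whole populations, fewer cells of a type and less RNA per cell cannot be told apart.

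**Figure D1:**
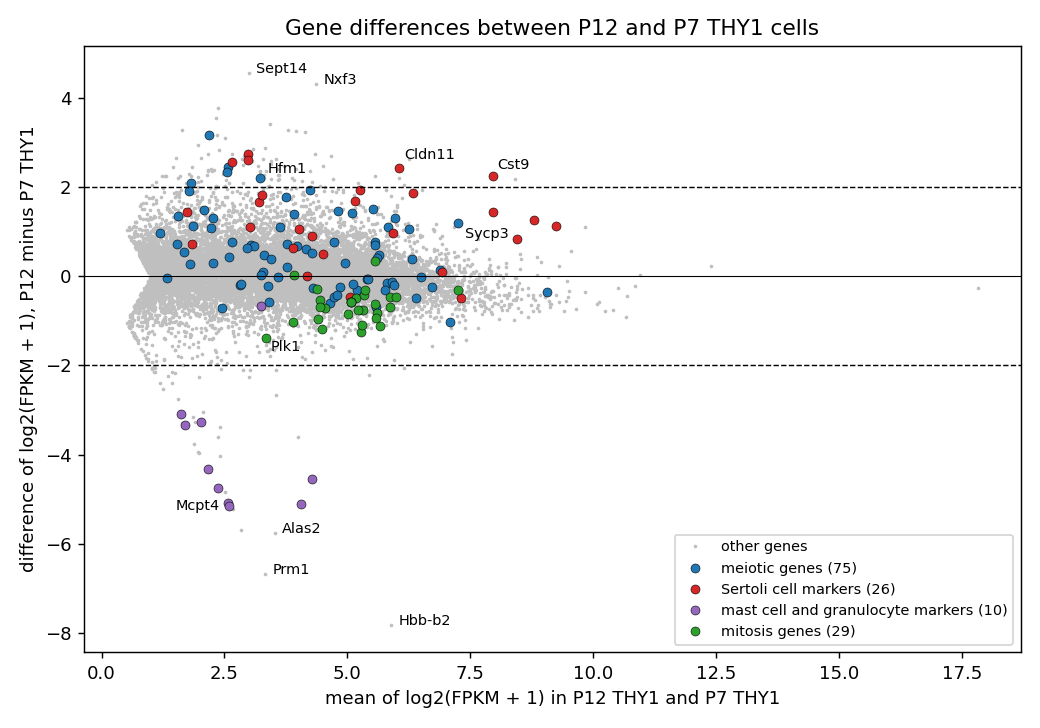
Difference of log2(FPKM + 1), P12 THY1 minus P7 THY1 (vertical axis), against the mean of log2(FPKM + 1) in the same columns (horizontal axis), with 1 point per gene and coloured points for 4 kinds of gene. Sertoli markers (red) lie mostly above 0, and the highest coloured point is the meiotic gene Meiob (3.16). Mitosis genes (green) lie mostly below 0, and 9 of 10 mast cell and granulocyte markers (purple) lie below the dashed line at -2.

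Genes of meiotic prophase were higher in P12 THY1 than in P7 THY1, and the highest differences were in the machinery that handles DNA breaks and crossovers. Over 6 lists that together held 75 measured meiotic genes, 20 were higher at 2-fold (4.54% of all genes were) and 1 was lower, and 5 of the 20 were higher at 4-fold (0.721% of all genes were). The median difference of the 75 was 0.48, against 0.04 for all genes. The level in KIT cells moved more: the median difference of the 75 between P12 KIT and P7 KIT was 1.30, and the 20 genes were all higher in P12 KIT than in P12 THY1.

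The 5 genes at 4-fold serve recombination and the attachment of chromosomes to the nuclear envelope. 4930528F23Rik, the older symbol of Meiob, encodes a single-strand DNA-binding protein of meiotic recombination and stood at 12.6 FPKM in P12 THY1 and 0.522 FPKM in P7 THY1 (difference 3.16). Spata22, the partner of MEIOB, stood at 12.9 FPKM in P12 THY1 and 1.56 FPKM in P7 THY1 (2.45). Hfm1, a helicase needed for crossovers, stood at 19.2 FPKM in P12 THY1 and 3.37 FPKM in P7 THY1 (2.21). Its level in the other P7 columns, 4.14 FPKM in P7 VASA THY1, 3.52 FPKM in P7 KIT, 5.78 FPKM in P7 ID4-GFP and 5.75 FPKM in P7 OCT4-GFP, stayed below P12 THY1. Spdya, an activator of CDK2 at meiotic telomeres, stood at 12.1 FPKM in P12 THY1 and 1.59 FPKM in P7 THY1 (2.34). Ccdc79, the older symbol of the telomere adaptor Terb1, stood at 6.30 FPKM in P12 THY1 and 0.717 FPKM in P7 THY1 (2.09). Of these 5, all were higher still in P12 KIT, between 22.2 FPKM for 4930528F23Rik and 47.9 FPKM for Hfm1, and between 0.398 and 3.52 FPKM in P7 KIT.

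The synaptonemal complex list had the highest median of the meiotic lists, 0.88, with 5 of 10 members higher at 2-fold and Syce2, a central element protein, as the only member below 0 (-0.24). Hormad1, a chromosome axis protein of unpaired chromosomes, stood at 35.9 FPKM in P12 THY1 and 8.70 FPKM in P7 THY1 (1.93). The axis protein gene Sycp2 stood at 76.1 and 26.1 FPKM in P12 THY1 and P7 THY1 (1.51). Its partner Sycp3 stood at 229 and 99.6 FPKM in P12 THY1 and P7 THY1 (1.20), with 158 FPKM in P7 VASA THY1, 523 FPKM in P12 KIT and 126 FPKM in P7 KIT. Sycp1, which forms the filaments that zip the axes together, stood at 109 FPKM in P12 THY1 and 51.7 FPKM in P7 THY1 (1.06), and 4930447C04Rik, the older symbol of Six6os1, a further central element protein, at 54.4 and 19.8 FPKM in P12 THY1 and P7 THY1 (1.41).

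Among recombination and crossover genes, 7 of 22 were higher at 2-fold and none lower, with a median of 0.40. Beside Meiob, Spata22 and Hfm1 these were Cntd1, a regulator of crossover number (1.92), the recombinase Dmc1 (1.39), and the MutS homologues Msh5 (1.30) and Msh4 (1.08) that stabilise crossover intermediates. Dmc1 stood at 23.4 FPKM in P12 THY1 and 8.30 FPKM in P7 THY1, and at 18.5 FPKM in P7 VASA THY1. In the cohesin and telomere list (median 0.72), 3 of 11 were higher, the third being Smc1b, the meiotic cohesin subunit, at 82.2 and 37.9 FPKM in P12 THY1 and P7 THY1 (1.10). Stag3, another meiotic cohesin subunit, went the other way, with 70.6 FPKM in P12 THY1 and 99.5 FPKM in P7 THY1 (-0.49).

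Genes that start meiosis were divided. Stra8, the retinoic acid target that licenses meiosis, was not higher in P12 THY1 (32.0 FPKM, against 39.7 FPKM in P7 THY1), whereas in KIT cells it stood at 192 FPKM at P12 and 106 FPKM at P7. Gm1564, the older symbol of Meioc, which keeps germ cells in prophase, stood at 45.4 FPKM in P12 THY1 and 15.9 FPKM in P7 THY1 (1.45), and Ccnb3, a cyclin of early meiosis, at 24.0 and 6.32 FPKM in P12 THY1 and P7 THY1 (1.77). Of 10 genes that make meiotic breaks, Hormad1 and Spo11 were higher at 2-fold, with a list median of 0.44. Spo11, the enzyme that cuts the DNA, stood at 6.06 FPKM in P12 THY1 and 1.53 FPKM in P7 THY1 (1.48). Pachytene and sex chromosome silencing genes had a median of -0.01, with 2 of 17 higher at 2-fold, the checkpoint kinase Atr (96.8 and 38.9 FPKM in P12 THY1 and P7 THY1, 1.29) and the pachytene transcription factor Mybl1 (17 and 7.44 FPKM in P12 THY1 and P7 THY1, 1.10). H2afx, whose product marks DNA breaks and the silenced sex chromosomes, was the 1 meiotic gene lower at 2-fold, with 95.1 FPKM in P12 THY1 and 195 FPKM in P7 THY1 (-1.03). The 20 piRNA genes, which defend the germ line against transposons, held none at 2-fold in either direction (median 0.19).

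The direction of the meiotic lists depended on the P7 library. When P7 VASA THY1 took the place of P7 THY1, the median of all 75 meiotic genes turned to -0.34 and Smc1b to -0.15. The lists of meiotic entry, break formation, cohesin and recombination turned to -0.69, -0.55, -0.15 and -0.29, and the synaptonemal complex median was 0.11. Of the 20 genes higher at 2-fold, 19 stayed higher in P12 THY1 than in P7 VASA THY1 (51.6% of all genes were). The choice of the 20 by their P12 THY1 value favours that count. Of the 20, 17 were higher again in P14 THY1 than in P12 THY1, whereas 57.9% of all genes were lower there.

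The promoters of these genes were searched for CNCCTCAG, the sequence known to be bound by mouse STRA8 and its partner MEIOSIN, in the 250 bases before the gene start on both strands (RefSeq promoters, GRCm38.p6, a build other than the mm9 of the deposited table). Of the 20 meiotic genes higher at 2-fold, 17 had a promoter in the RefSeq table and 2 of the 17 (11.8%) held the sequence. Of the other 55 meiotic genes, 45 had one and 6 (13.3%) held the sequence, as did 1996 of all 27025 genes with a promoter (7.39%). The 2 promoters are shown because they belong to Hfm1 and Msh5, crossover genes higher in P12 THY1. Each 120-base stretch is written 5′ to 3′ along the gene, which lies on the minus strand in both cases, and capitals mark the motif, which lies on the strand opposite to the gene and so reads as CTGAGGNG.
Hfm1, chr5:106925893-106926012, minus strand, motif 66 bases before the start: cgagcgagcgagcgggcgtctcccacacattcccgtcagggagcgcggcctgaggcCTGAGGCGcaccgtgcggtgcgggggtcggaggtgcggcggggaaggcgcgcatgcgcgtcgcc
Msh5, chr17:35046641-35046760, minus strand, motif 82 bases before the start: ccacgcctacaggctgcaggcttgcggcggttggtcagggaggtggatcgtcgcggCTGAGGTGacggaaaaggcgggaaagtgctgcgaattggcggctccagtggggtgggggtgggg
The motif share of the 20 genes lay near that of the other meiotic genes, and a match in a promoter is a description of its letters.

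Sertoli cell markers were higher in P12 THY1 in a greater share of their list, and with a higher median, than the meiotic genes. Of 26 markers, 15 were higher at 2-fold (4.54% of all genes were), 5 of them at 4-fold, and none was lower at 2-fold, with a median of 1.19. The 5 were Tsx, Nr0b1, Gata1, Cldn11 and Cst9. Cldn11, the claudin of the blood-testis barrier, stood at 152 FPKM in P12 THY1 and 27.7 FPKM in P7 THY1 (2.42), with 88.9 FPKM in P7 VASA THY1. Gata1, a transcription factor that maturing Sertoli cells share with red cell precursors, stood at 14.3 FPKM in P12 THY1 and 1.59 FPKM in P7 THY1 (2.56), with 7.10 FPKM in P7 VASA THY1. Nr0b1, the nuclear receptor DAX1, stood at 18.4 and 2.20 FPKM in P12 THY1 and P7 THY1 (2.6). Cst9, a cystatin-like gene of Sertoli cells, was among the most abundant, at 542 FPKM in P12 THY1 and 113 FPKM in P7 THY1 (2.25). Tsx, an X-linked testis gene, stood at 19.5 and 2.07 FPKM in P12 THY1 and P7 THY1 (2.74).

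Not all Sertoli genes shared the difference. The identity gene Sox9 stood at 25.8 FPKM in P12 THY1 and 18 FPKM in P7 THY1 (0.50). Amh, the anti-Müllerian hormone of immature Sertoli cells, stood at 27.4 FPKM in P12 THY1 and 37.9 FPKM in P7 THY1 (-0.46), and Inha, the inhibin alpha subunit, at 124 and 117 FPKM in P12 THY1 and P7 THY1 (0.08). Dmrt1, which germ cells also express, stood at 132 and 187 FPKM in P12 THY1 and P7 THY1 (-0.50). The receptor genes went higher: Amhr2, the receptor of anti-Müllerian hormone, stood at 102 FPKM in P12 THY1 and 20.6 FPKM in P7 THY1 (2.25), and Fshr, the follicle-stimulating hormone receptor, at 4.45 and 1.02 FPKM in P12 THY1 and P7 THY1 (1.43). With P7 VASA THY1 as the P7 value the differences were 0.42 for Amhr2 and 0.02 for Fshr, and 0.77 for Cldn11, 0.92 for Gata1 and 0.60 for Nr0b1.

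Targets of hormone action in Sertoli cells were among the higher genes. Of 21 genes of the FSH and androgen list, 5 were higher at 2-fold (4.54% of all genes were) and none lower (median 0.35). Spinlw1, the older symbol of the protease inhibitor Eppin, stood at 52.9 FPKM in P12 THY1 and 4.74 FPKM in P7 THY1 (3.23). Gpd1, a glycerol phosphate dehydrogenase, stood at 11.2 and 1.5 FPKM in P12 THY1 and P7 THY1 (2.29), and Gja1, the gap junction protein connexin 43, at 50.0 and 16.9 FPKM in P12 THY1 and P7 THY1 (1.51, but 0.02 against P7 VASA THY1). Of 19 barrier and junction genes, Cldn11, Gja1 and the tight junction adaptor Cgn (53.3 and 22.2 FPKM in P12 THY1 and P7 THY1, 1.23) were higher at 2-fold and none lower (median 0.15), read against the same 4.54%. Kitl, the ligand of KIT made by Sertoli cells, stood at 83.9 FPKM in P12 THY1 and 42.7 FPKM in P7 THY1 (0.96), while Gdnf, a niche factor that sustains stem cells, stood at 7.30 and 9.18 FPKM in P12 THY1 and P7 THY1 (-0.30). Both were higher in P12 THY1, by 2.38 for Kitl and 1.65 for Gdnf, when set against P7 VASA THY1.

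The later and the sorted columns held less Sertoli RNA than P12 THY1. Of the 15 Sertoli markers higher at 2-fold, none was higher in P14 THY1 than in P12 THY1, 1 was higher in P12 KIT than in P12 THY1, and 1 was higher in P7 ID4-GFP than in P7 THY1. Of all genes, 57.9% were lower in P14 THY1 than in P12 THY1 and 48.7% lower in P7 ID4-GFP than in P7 THY1. The 15 were picked for a high P12 THY1 value, which partly fixes the P14 and KIT counts. In P7 VASA THY1 the FPKM of all 26 summed to 2447, and 14 of the 15 were higher than in P7 THY1 (50.9% of all genes were). The list median of P12 THY1 against P7 VASA THY1 was 0.69. In KIT cells the median was 0.63, with sums of 1586 FPKM in P12 KIT and 1211 FPKM in P7 KIT. The summed FPKM of Sertoli markers in P14 THY1 was 313. The part of these transcripts in the differences of other genes was not tested.

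Most of the genes furthest above 0 were in no germ cell list and no list of another cell type. Of the 97 genes higher at 4-fold, 5 were in a germ cell or meiotic list and 8 in a list of another cell type. The lists cover only part of the genes, so these counts alone do not show a low share. The 5 were among 75 measured meiotic genes, and 0.721% of all genes were higher at 4-fold. Of the 97, 68 had their highest level of all 11 columns in P12 THY1, 79 were lower in P14 THY1 than in P12 THY1 (62 of them by 4-fold or more in FPKM), and 76 were lower in P7 ID4-GFP than in P7 THY1. Of all 13447 genes, 1350 had their highest level in P12 THY1, 57.9% were lower in P14 THY1 than in P12 THY1 and 48.7% were lower in P7 ID4-GFP than in P7 THY1. Since the 97 were picked for a high value in P12 THY1, the first counts are partly fixed by that choice. The largest difference was that of Sept14, a septin, at 37.7 FPKM in P12 THY1 and 0.661 FPKM in P7 THY1 (4.54). It stood at 11.1 FPKM in P7 VASA THY1, 17.6 FPKM in P12 KIT and 0.655 FPKM in P7 KIT, and at 0.909 FPKM in P14 THY1. Nxf3, an X-linked RNA export factor known from mouse Sertoli cells, followed at 91.2 FPKM in P12 THY1 and 3.63 FPKM in P7 THY1 (4.32), with 8.25 FPKM in P7 VASA THY1 and 58.2 and 2.54 FPKM in P12 KIT and P7 KIT.

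Others of the 20 largest were Dmrtc1a, of the DMRT family (18.2 and 0.408 FPKM in P12 THY1 and P7 THY1), Butr1, a butyrophilin relative (16.1 and 0.475 FPKM in P12 THY1 and P7 THY1), and Clec12b, a lectin-type receptor (47.0 and 4.04 FPKM in P12 THY1 and P7 THY1). Rgs5, a regulator of G protein signalling known as a marker of the cells that wrap small vessels, stood at 42.5 FPKM in P12 THY1 and 3.47 FPKM in P7 THY1 (3.28), at 0.0858 FPKM in P7 VASA THY1 and at 10.2 FPKM in P14 THY1. Gamt, the last enzyme of creatine synthesis, stood at 51.7 and 6.84 FPKM in P12 THY1 and P7 THY1 (2.75), and Adora1, an adenosine receptor, at 26.0 and 2.67 FPKM in P12 THY1 and P7 THY1 (2.88). The transporter gene Slc47a2 (2.85), the tetraspanin Tspan17 (2.73), the urea cycle enzyme gene Nags (2.74), Tmem114 (3.09), L3mbtl4 (2.94), 2310046K01Rik (3.41) and C330005M16Rik (3.17) completed this group with Meiob, Eppin and Tsx. With P7 VASA THY1 as the P7 value, Tmem114 stood at 0.05, Gamt at 0.43, 2310046K01Rik at 0.50, Clec12b at 0.68, Slc47a2 at 0.81 and Dmrtc1a at 0.96. Mtl5, the testis gene tesmin, went on to 256 FPKM in P14 THY1 (12.9 FPKM in P12 THY1 and 0.971 FPKM in P7 THY1, 2.82). Meiob was also higher in P14 THY1, at 22.2 FPKM, than in P12 THY1, at 12.6 FPKM. Defb45, a beta-defensin, stood at 8.69 FPKM in P12 THY1 and was listed at 0 in P7 THY1.

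**Figure D2:**
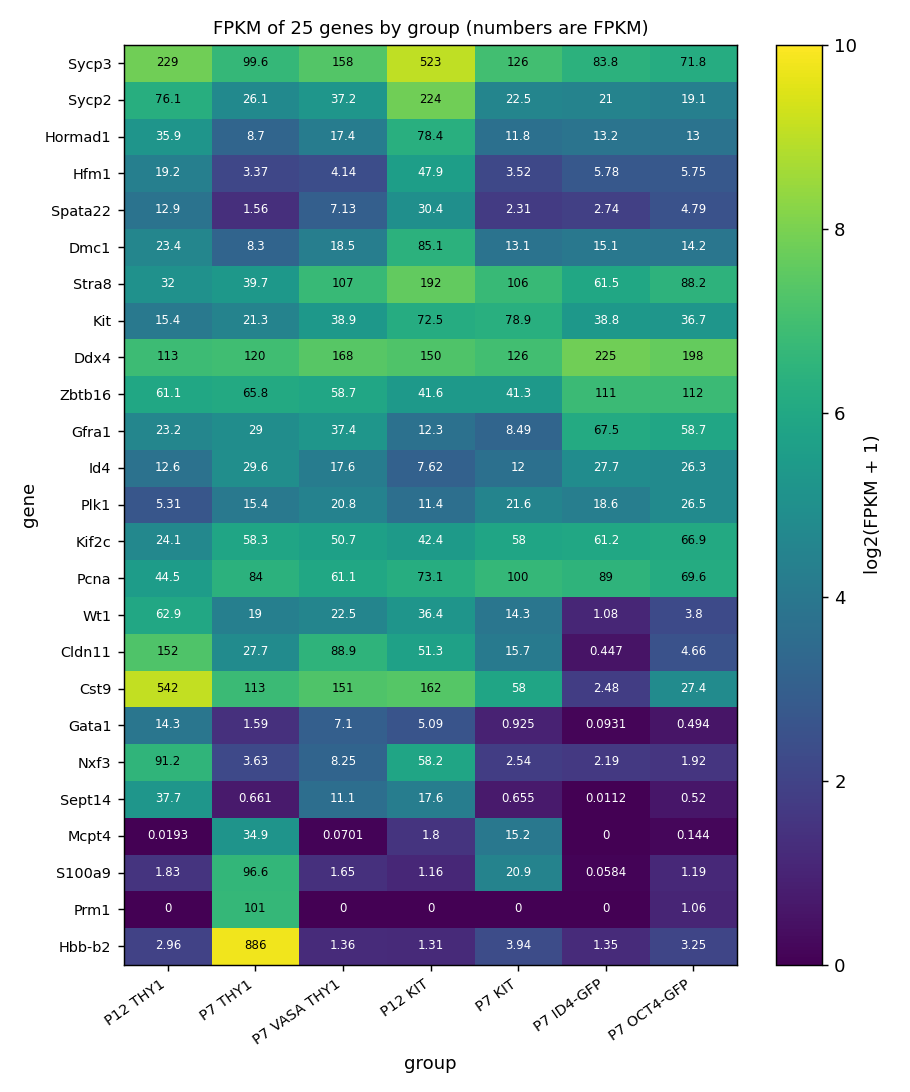
Levels of 25 genes (rows) in 7 columns of the deposited table, coloured by log2(FPKM + 1) with the FPKM printed in each cell. Meiotic genes at the top peak in P12 KIT, Sertoli genes such as Cst9 (542 FPKM in P12 THY1 and 113 FPKM in P7 THY1) peak in P12 THY1, and Hbb-b2, Prm1, Mcpt4 and S100a9 at the bottom stand out in P7 THY1.

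Other somatic markers also differed, and not in one direction. Peritubular myoid markers, of the contractile cells around the tubules, had a median of 0.84, with 4 of 13 higher at 2-fold (4.54% of all genes were) and none lower. Their summed FPKM was 509 in P12 THY1 and 290 in P7 THY1. Myl9, a smooth muscle myosin light chain, stood at 168 and 73.9 FPKM in P12 THY1 and P7 THY1 (1.17), and Myh11, the smooth muscle myosin heavy chain, at 27.6 and 12.2 FPKM in P12 THY1 and P7 THY1 (1.12). In KIT cells the median of the myoid list was -0.39. Of 22 fibroblast markers 5 were higher (4.54% of all genes were) and 1 lower (1.73% of all genes were) at 2-fold (median 0.32). Macrophage markers split, with 4 of 19 higher (4.54% of all genes were) and 4 lower (1.73% were) at 2-fold. Their median was -0.17, or 0.07 over all 23. The mannose receptor gene Mrc1 (10.4 and 1.83 FPKM in P12 THY1 and P7 THY1, 2.01) and the complement genes C1qa, C1qb and C1qc (for C1qc 13.6 and 3.48 FPKM in P12 THY1 and P7 THY1) were higher. Among the lower were the antigen presentation genes H2-Aa (4.64 and 23.3 FPKM in P12 THY1 and P7 THY1, -2.11) and Cd74 (8.22 and 32.2 FPKM in P12 THY1 and P7 THY1, -1.85). They turned to 1.93 (H2-Aa) and 2.56 (Cd74) against P7 VASA THY1. Endothelial markers were lower, with 3 of 18 at 2-fold (1.73% of all genes were) and a median of -0.68. Emcn, the vessel sialomucin endomucin, stood at 11.9 FPKM in P12 THY1 and 31.4 FPKM in P7 THY1 (-1.33). In P7 VASA THY1 the endothelial markers had a median level of 0.781 FPKM, against 7.10 FPKM in P12 THY1, and the median difference against that library was 1.72.

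Leydig cell genes, for androgen synthesis, had a median of -0.15 in THY1 cells and -1.13 in KIT cells. Cyp11a1, the enzyme that starts steroid synthesis, stood at 12.1 FPKM in P12 THY1 and 36.8 FPKM in P7 THY1 (-1.53), and at 32.3 FPKM in P12 KIT and 190 FPKM in P7 KIT. The steroid regulator gene Nr5a1 went the other way in THY1 cells, with 18.8 FPKM in P12 THY1 and 7.27 FPKM in P7 THY1 (1.26). Both changed sign against P7 VASA THY1, Cyp11a1 to 3.05 and Nr5a1 to -0.10.

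The self-renewal genes of the stem cell stood lower in P12 THY1. Of 18 genes 16 were below 0, with a median of -0.69, and 4 were lower at 2-fold (1.73% of all genes were) and none higher. Id4, a transcription inhibitor that marks stem cells, stood at 12.6 FPKM in P12 THY1 and 29.6 FPKM in P7 THY1 (-1.17), and at 49.1 FPKM in P14 THY1. Egr2, a transcription factor downstream of growth factor signals, stood at 12.6 and 30.5 FPKM in P12 THY1 and P7 THY1 (-1.21), and Pou3f1, a GDNF-induced transcription factor, at 5.20 and 13.0 FPKM in P12 THY1 and P7 THY1 (-1.17). Spry4, a feedback inhibitor of receptor signalling, stood at 9.81 and 21.6 FPKM in P12 THY1 and P7 THY1 (-1.07). The GDNF receptor genes moved less, with Gfra1 at 23.2 FPKM in P12 THY1 and 29.0 FPKM in P7 THY1 (-0.31) and Ret, its signalling partner, at 24.2 and 39.8 FPKM in P12 THY1 and P7 THY1 (-0.70). Below the minimum of 5 FPKM, Lhx1, a GDNF target, stood at 0.809 and 3.94 FPKM in P12 THY1 and P7 THY1 (-1.45), and Nanos2, which holds cells in the stem state, was slightly higher at 2.72 and 1.86 FPKM in P12 THY1 and P7 THY1 (0.38).

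The self-renewal difference was smaller in KIT cells, with a median of -0.18 between P12 KIT and P7 KIT. Against P7 VASA THY1 the median in THY1 cells was -0.28 and Spry4 turned to 1.54, since it stood at 2.72 FPKM in that library.

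Genes of undifferentiated progenitors did not move as a list, with a median of -0.05 and none of 18 at 2-fold. Within it, Lin28a, a regulator of microRNA processing, was higher (79.6 FPKM in P12 THY1 and 49.9 FPKM in P7 THY1, 0.66), and Pou5f1, which encodes OCT4, was lower (10.5 and 21.0 FPKM in P12 THY1 and P7 THY1, -0.94), as was Uchl1, an abundant ubiquitin hydrolase of spermatogonia (364 and 621 FPKM in P12 THY1 and P7 THY1, -0.77). Neurog3, which marks cells committed to leave the stem state, stood at 3.94 and 0.843 FPKM in P12 THY1 and P7 THY1 (1.42), under the 5 FPKM that the count requires, and turned to -0.72 against P7 VASA THY1, as Lin28a did to -0.15. Genes of differentiating spermatogonia had a median of -0.23, and 1 of 12 was counted as lower at 2-fold (1.73% of all genes were). It was Dmrtb1, a regulator of the switch to meiosis, at 1.89 FPKM in P12 THY1 and 5.49 FPKM in P7 THY1 (-1.17). Against P7 VASA THY1 the median of this list was -1.27.

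Dividing-cell genes were lower in P12 THY1 almost without exception, each by a modest amount. Of 29 mitosis and spindle genes 27 were below 0, with a median of -0.68, and 6 were lower at 2-fold (1.73% of all genes were). Plk1, the mitotic kinase that drives entry and exit, stood at 5.31 FPKM in P12 THY1 and 15.4 FPKM in P7 THY1 (-1.38). Kif2c, a motor that corrects wrong attachments to the spindle, stood at 24.1 and 58.3 FPKM in P12 THY1 and P7 THY1 (-1.24). The others were Aurka (-1.17), Cdc20 (-1.11), Cenpa (-1.09) and Ccnb1 (-1.03), for a spindle kinase, the activator that ends metaphase, the centromeric histone and a mitotic cyclin. The checkpoint kinase Bub1 was the exception with the largest value, at 52.4 and 41.2 FPKM in P12 THY1 and P7 THY1 (0.34).

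Of 26 DNA replication genes 24 were below 0, with a median of -0.70, and none passed 2-fold in either direction. The sliding clamp gene Pcna stood at 44.5 FPKM in P12 THY1 and 84.0 FPKM in P7 THY1 (-0.90), Fen1, the flap nuclease, at 37.4 and 74.1 FPKM in P12 THY1 and P7 THY1 (-0.97), and Mcm3, of the replicative helicase, at 67.1 and 123 FPKM in P12 THY1 and P7 THY1 (-0.86). In KIT cells the medians were -0.33 for mitosis and -0.17 for replication. With P7 VASA THY1 in its place they were -0.77 and -0.90, so both lists kept their direction and their size.

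Ribosomal protein genes were below 0 in 28 of 28 cases, with a median of -0.61. Rpl13 stood at 45.4 FPKM in P12 THY1 and 128 FPKM in P7 THY1 (-1.47) and Rps2 at 86.8 and 225 FPKM in P12 THY1 and P7 THY1 (-1.36). The list median was alike in KIT cells, -0.68, but -0.21 against P7 VASA THY1, where Rps2 turned to 0.64. Ribosomal protein genes have many near-identical processed copies in the genome, so their values are uncertain. Among 24 clustered histone genes, 6 were lower (1.73% of all genes were) and 1 higher (4.54% were) at 2-fold, with a median of -0.60. Hist1h3c, a replication histone, stood at 17.2 FPKM in P12 THY1 and 64.9 FPKM in P7 THY1 (-1.86), whereas Hist1h1t, the linker histone of meiotic cells, stood at 36.8 and 12.8 FPKM in P12 THY1 and P7 THY1 (1.46). Reads of histone genes can also be shared between close copies.

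**Figure D3:**
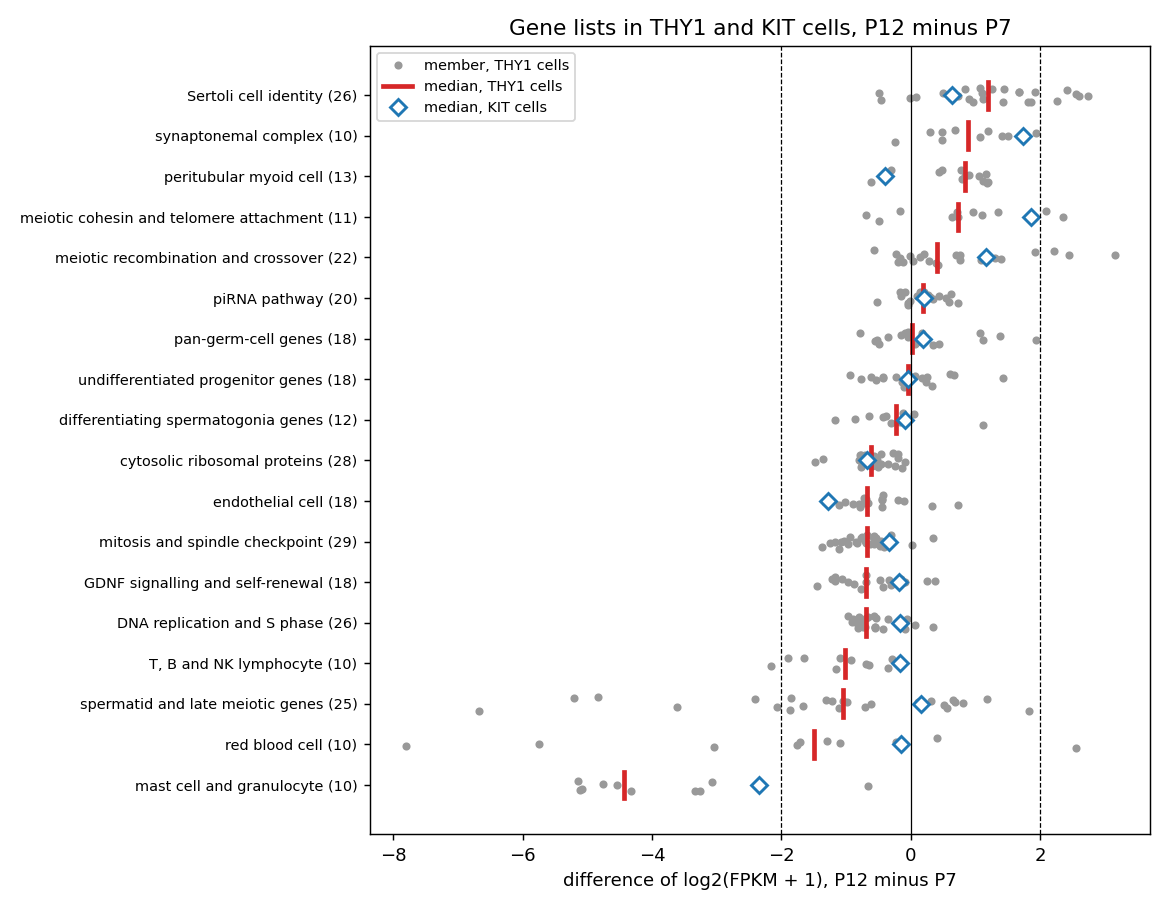
Differences of log2(FPKM + 1), P12 minus P7, for the members of 18 gene lists in THY1 cells (grey points), with the median in THY1 cells (red bars) and the median in KIT cells (blue open diamonds); numbers in brackets are members with at least 1 FPKM in P12 THY1 or P7 THY1. The medians of Sertoli, myoid and mast cell lists lie further from 0 in THY1 cells than in KIT cells, and those of the 3 meiotic lists lie further from 0 in KIT cells.

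Transcripts of most mast cell and granulocyte markers present in P7 THY1 were nearly gone in P12 THY1. Of 14 mast cell and granulocyte markers 10 reached 1 FPKM, a filter that favours the column where they are high. Of the 10, 9 were lower at 4-fold (0.297% of all genes were). Their median was -4.43, or -3.29 over all 14. The summed FPKM of the 10 was 11.8 in P12 THY1 and 343 in P7 THY1, and 12.4 in P12 KIT and 90.4 in P7 KIT. Mcpt4, a mast cell chymase, stood at 0.0193 FPKM in P12 THY1 and 34.9 FPKM in P7 THY1 (-5.14), and at 59.1 FPKM in P0 THY1. Cma1, another chymase, stood at 0.0174 and 33.5 FPKM in P12 THY1 and P7 THY1 (-5.08), and the mast cell proteases Tpsb2 and Cpa3 were listed at 0 in P12 THY1 but had 26.0 and 19.1 FPKM in P7 THY1. The neutrophil proteins were lower with them: S100a9 stood at 1.83 and 96.6 FPKM in P12 THY1 and P7 THY1 (-5.11), and S100a8 at 3.05 and 93.1 FPKM in P12 THY1 and P7 THY1 (-4.54). Hdc, which makes histamine, was the exception, at 6.54 FPKM in P12 THY1 and 11 FPKM in P7 THY1 (-0.67).

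Of the other P7 columns, P7 KIT also held these transcripts and the rest nearly lacked them. Mcpt4 stood at 15.2 FPKM in P7 KIT. It stood at 0.0701 FPKM in P7 VASA THY1, was listed at 0 in P7 ID4-GFP, and had 0.144 FPKM in P7 OCT4-GFP. Against P7 VASA THY1 the median of the list was -0.07, so the difference between P12 THY1 and P7 THY1 rested on the level in P7 THY1. Of the 40 genes lower at 4-fold, 21 had their highest level in P0 THY1 and 17 in P7 THY1. Of the 40, 10 were listed at 0 in P12 THY1.

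Of 19 lymphocyte genes 10 reached 1 FPKM, a filter that favours the column where they are high, and all 10 lay below 0. Their median was -1.01, or -0.65 over all 19, and 2 were lower at 2-fold (1.73% of all genes were). These were the leukocyte antigen gene Ptprc (1.78 and 7.77 FPKM in P12 THY1 and P7 THY1) and the granule protease gene Gzmb (1.42 and 8.03 FPKM in P12 THY1 and P7 THY1). The lymphocyte median was 0.40 against P7 VASA THY1. Of the red cell genes, Hbb-b2, an adult beta globin, had the largest difference of all genes, at 2.96 FPKM in P12 THY1 and 886 FPKM in P7 THY1 (-7.81). Alas2, which starts haem synthesis in red cells, stood at 0.572 and 83.7 FPKM in P12 THY1 and P7 THY1 (-5.75). Hbb-b2 lay between 1.35 and 3.94 FPKM in the other 4 columns of P7 cells. Of 18 red cell genes 10 reached 1 FPKM, some through P7 THY1 alone. At 2-fold, 4 of the 10 were lower (1.73% of all genes were), 3 of them at 4-fold (0.297% were). Gata1, also in the Sertoli list, was the 1 member higher at 2-fold (2.56), beside 4.54% of all genes. The median of the 10 was -1.5, and over all 18 it was -0.25. The median was 0.19 against P7 VASA THY1, and Hbb-b2 turned to 0.75.

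Genes of the sperm nucleus were present in P7 THY1, an age with no spermatids, and nearly missing from P12 THY1. Prm1, the protamine that packs sperm DNA, was listed at 0 in P12 THY1 but had 101 FPKM in P7 THY1. Prm2 stood at 0.0745 and 29.7 FPKM in P12 THY1 and P7 THY1 (-4.84), the transition protein gene Tnp2 at 0.0439 and 37.7 FPKM in P12 THY1 and P7 THY1 (-5.21), and Tnp1 at 3.60 and 55.0 FPKM in P12 THY1 and P7 THY1 (-3.61). Of 34 spermatid and late meiotic genes 25 reached 1 FPKM, many through P7 THY1 alone. At 2-fold, 5 were lower (1.73% of all genes were) and 2 higher (4.54% were). Their median of -1.05 was -0.51 over all 34 and -0.31 with a pseudocount of 5. The 2 were Meig1, needed to shape the sperm, at 16.8 and 4.05 FPKM in P12 THY1 and P7 THY1 (1.82), and the chaperone gene Clgn at 10.2 and 3.97 FPKM in P12 THY1 and P7 THY1 (1.18). Against P7 VASA THY1 the median of the list was 0.05. Which library of P7 THY1 held the globin and protamine transcripts cannot be read from 1 column, and their source was not tested.

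A few genes at the top of the lower group were listed at 0 in P12 THY1 and in other columns. Tex14, a protein of the bridges between germ cells, was listed at 0 in P12 THY1 and P14 THY1 and stood at 50.2 FPKM in P7 THY1, 82.0 FPKM in P7 VASA THY1, 78.4 FPKM in P12 KIT and 51.7 FPKM in P7 KIT. Celf2, an RNA-binding protein, was listed at 0 in P12 THY1 but had 14.3 FPKM in P7 THY1, while in KIT cells it stood at 18.1 FPKM at P12 and was listed at 0 at P7. Rpph1, the RNA of RNase P, was likewise listed at 0 in P12 THY1 but had 14.7 FPKM in P7 THY1. A value of 0 can be a failed estimate, so no fold is given for these genes. The remaining genes of the 20 furthest below 0 were Mcpt2, a mast cell protease listed at 0 in P12 THY1 (20.02 FPKM in P7 THY1), and Stfa1, Stfa2l1, Gm5483 and BC100530, which stood between 12.6 and 20.6 FPKM in P7 THY1 and at or below 0.643 FPKM in P12 THY1. Stfa1 and Stfa2l1 belong to the stefin A family of protease inhibitors.

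Signalling genes went in both directions. Of 36 genes of BMP, activin and TGF-beta signalling, 2 were higher at 2-fold (4.54% of all genes were), Amhr2 and the ligand gene Tgfb3 (12.2 and 3.38 FPKM in P12 THY1 and P7 THY1, 1.59), and 3 were lower (1.73% of all genes were). Those were the BMP targets Id1 (18.2 and 47.7 FPKM in P12 THY1 and P7 THY1, -1.34) and Id3 (40.8 and 86.0 FPKM in P12 THY1 and P7 THY1, -1.06) and the inhibitor gene Smad6 (3.08 and 8.84 FPKM in P12 THY1 and P7 THY1, -1.27). Id1 and Id3 were low in P7 ID4-GFP, at 4.10 FPKM for Id1 and 3.23 FPKM for Id3, and against P7 VASA THY1 they turned to 2.22 and 1.86. Of 20 retinoic acid genes 3 were higher at 2-fold, with the same 4.54% of all genes as background, and none lower (median 0.38). Cyp26b1, the enzyme that breaks retinoic acid down, stood at 20.7 FPKM in P12 THY1 and 5.99 FPKM in P7 THY1 (1.64), Stra6, the receptor of the vitamin A carrier, at 6.45 and 2.09 FPKM in P12 THY1 and P7 THY1 (1.27), and the third gene was Gm1564. Of 22 niche factors 3 were higher (4.54% of all genes were) and 2 lower (1.73% were) at 2-fold (median 0.12). The growth factor genes Igf1 (18.3 and 6.33 FPKM in P12 THY1 and P7 THY1, 1.40), Wnt6 (10.3 and 4.12 FPKM in P12 THY1 and P7 THY1, 1.14) and Il6 (6.49 and 2.40 FPKM in P12 THY1 and P7 THY1, 1.14) were higher. The platelet-derived growth factor genes Pdgfa (36.9 and 79.4 FPKM in P12 THY1 and P7 THY1, -1.08) and Pdgfb (17.2 and 57.7 FPKM in P12 THY1 and P7 THY1, -1.69) were lower. Wnt6, Pdgfa and Pdgfb changed sign against P7 VASA THY1.

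In metabolism, 4 of 22 glycolysis and lactate genes were higher at 2-fold (4.54% of all genes were) and 1 was lower (1.73% were), with a median of 0.09. The same shares are the background of the apoptosis and sort antigen lists below. Slc16a3, a lactate exporter, stood at 11.2 FPKM in P12 THY1 and 1.73 FPKM in P7 THY1 (2.16), but at 17.6 FPKM in P7 VASA THY1. Ldhb, a lactate dehydrogenase subunit, stood at 109 and 30.6 FPKM in P12 THY1 and P7 THY1 (1.79), with 39.5 FPKM in P12 KIT and 26.7 FPKM in P7 KIT. The other 2 were the phosphofructokinase genes Pfkl (1.32) and Pfkm (1.23, but -0.042 against P7 VASA THY1), and the lower gene was Bpgm, which makes the red cell metabolite that loosens oxygen from haemoglobin (14.4 and 32.6 FPKM in P12 THY1 and P7 THY1, -1.13). Of 19 apoptosis genes, 1 was higher and 2 were lower at 2-fold. The higher was the death receptor gene Fas (56.8 and 14.6 FPKM in P12 THY1 and P7 THY1, 1.89), which stood at 0.0644 FPKM in P7 VASA THY1 and 0.177 FPKM in P7 ID4-GFP. Among the lower, Bbc3, the p53 target PUMA, stood at 3.08 and 9.34 FPKM in P12 THY1 and P7 THY1 (-1.34), and turned to 0.96 against P7 VASA THY1. Of 15 sort antigens, Epcam, an adhesion protein of epithelia and spermatogonia, stood at 25 and 55.9 FPKM in P12 THY1 and P7 THY1 (-1.13) and Ptprc was the other gene at 2-fold.

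KIT cells of the same ages, which share no library with the THY1 columns, gave the same direction for most of the higher genes. Of the 97 genes higher in P12 THY1 at 4-fold, 91 were higher in P12 KIT than in P7 KIT (50.2% of all genes were). Their median difference was 1.47 in KIT cells and 2.36 in THY1 cells. Of the 97, 88 were lower in P12 KIT than in P12 THY1, a count favoured by their choice for a high P12 THY1 value. Of the 40 lower genes 30 were lower in KIT cells (49.7% of all genes were), with a median of -1.09 in KIT cells and -3.36 in THY1 cells. Over 12826 genes with at least 1 FPKM in P12 THY1 or P7 THY1 and in P12 KIT or P7 KIT, Pearson's r between the difference in THY1 cells and that in KIT cells was 0.486 across genes, given as a description. Whether any difference is larger in THY1 cells than in KIT cells was not tested.

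Over the 4 ages of THY1 cells, the lists followed separate courses. The median FPKM of the synaptonemal complex list was 22.8, 31.5, 58.3 and 135 at P0, P7, P12 and P14. That of recombination genes was 6.04, 6.57, 9.03 and 21.2. Meiotic lists were therefore highest at P14. The Sertoli list was highest at P12, with 15.7, 18.3, 26.6 and 3.10 FPKM at these ages. The self-renewal list was highest at P7, with 13.1, 23.9, 12.4 and 5.43 FPKM at these ages, and so was mitosis, with 19.9, 42.5, 26.7 and 36.9 FPKM. The mast cell and granulocyte list had medians of 69.4, 22.5, 0.0387 and 0.0852 FPKM in the same order.

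**Figure D4:**
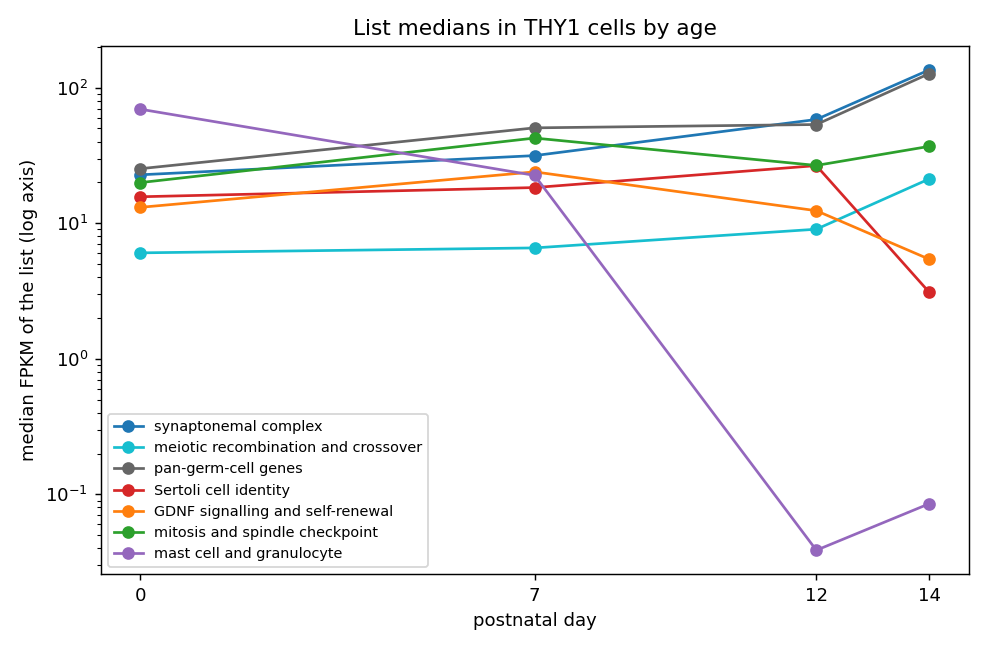
Median FPKM (log axis) of 7 gene lists in THY1 cells at postnatal days 0, 7, 12 and 14, with 1 column per age. The synaptonemal complex list climbs to 135 FPKM at day 14, the Sertoli list peaks at 26.6 FPKM at day 12, and the mast cell and granulocyte list is at 0.0387 FPKM at day 12.

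The genes nearest the 4-fold boundary differ from their neighbours by little. Just inside it on the higher side were Naalad2 (19.8 FPKM in P12 THY1 and 4.16 FPKM in P7 THY1), Nxnl2 (6.79 and 0.940 FPKM in P12 THY1 and P7 THY1) and Car5b (5.55 and 0.633 FPKM in P12 THY1 and P7 THY1), and just outside were Efhd1 (45.4 and 10.6 FPKM in P12 THY1 and P7 THY1), Vdr (5.76 and 0.695 FPKM in P12 THY1 and P7 THY1) and Ric3 (9.33 and 1.6 FPKM in P12 THY1 and P7 THY1). On the lower side Il2rb (1.63 and 10.1 FPKM in P12 THY1 and P7 THY1), Ctgf (34.0 and 144 FPKM in P12 THY1 and P7 THY1) and Gzmf (0.575 and 5.30 FPKM in P12 THY1 and P7 THY1) were inside, and Isg20 (1.58 and 9.03 FPKM in P12 THY1 and P7 THY1), Esm1 (2.00 and 10.5 FPKM in P12 THY1 and P7 THY1) and Tph1 (1.37 and 8.07 FPKM in P12 THY1 and P7 THY1) outside.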

How the data were processed

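RNA of bead-enriched or sorted testis cells was measured by sequencing. Per the labels' protocols, ribosomal RNA was removed from total RNA before directional library construction. Per the submitters' processing notes, CASAVA, TopHat2 2.0.9, Cufflinks 2.1.1 and the mouse build mm9 were used; the annotation and how 2 libraries became 1 column are not given in the sources used here. The authors deposited FPKM, in 1 table of 20889 gene symbols and 11 columns that stand for 16 libraries. Of the series, 8 bisulfite and 6 chromatin samples were not analysed here.

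The depth of the libraries is unknown, since FPKM hold no counts. Below 0.05 FPKM, 1 fragment was worth 3.89 times as much in P7 THY1 as in P12 THY1 in 24 of 264 genes, but 1.94 times in 17, so the relative depth is uncertain by a whole factor. Of 20889 genes, 2797 were listed at 0 in P12 THY1 and 3164 in P7 THY1. The upper quartile was 18.2 FPKM in P12 THY1 and 17.3 FPKM in P7 THY1. Median-ratio, quantile and germ cell scaling moved the median of all genes by 0.04, -0.03 and 0.01 (log2).

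Differences of log2(FPKM + 1) were computed from the deposited values with Python 3.11.15, numpy 2.4.6 and pandas 2.3.3, and plots with matplotlib 3.10.9. A test with limma had been planned for a table with a column per library, and was not run because the table has 1 value per group. The size rule was tested on simulated data, whose outcome is not given here and holds no spread between the libraries. Genes were named by rule: the sort and identity genes, the 20 largest 4-fold differences in each direction, up to 6 members of each of 43 lists in each direction with at least 5 FPKM in the higher column, and those nearest the boundary. Fshr, Hdc, Inha, Lhx1, Msh4, Nanos2, Neurog3, Ret and Wt1 were chosen after their values were seen. The comparison, its members and the lists were chosen with earlier results of these data known. Of 20889 symbols 20711 matched current symbols or synonyms in the RefSeq tables of GRCm38.p6, which gave names, chromosomes and promoters. In the lists 26 entries were matched through a synonym and 21 were not found. Some named genes are not reported here. Alternatives are described in the closing section.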

Additional observations from a re-analysis of the deposited data

Results flagged for a closer look

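For 10 genes with a value above 0 in all 4 columns, and at least 5 FPKM in the higher column of each cell type, the difference between P12 and P7 went in opposite directions in THY1 cells and KIT cells, by at least 2-fold in each. Each of these 10 was higher in P12 THY1 than in P7 THY1 and lower in P12 KIT than in P7 KIT. Another 2 genes, Celf2 and Rpph1, went the other way but were listed at 0 in P12 THY1 and in P7 KIT, and a value of 0 can be a failed estimate, so no difference is set between the cell types for them. The differences between the cell types were not tested, since each column has 1 value. The number given for each gene is the difference in THY1 cells minus the difference in KIT cells, on the log2 scale.

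Sct, which encodes the hormone secretin, was apart by 3.95, with 9.24 and 3.81 FPKM in P12 THY1 and P7 THY1 and 3.70 and 33 FPKM in P12 KIT and P7 KIT. Ppp1r14a, an inhibitor of the smooth muscle myosin phosphatase, was apart by 3.12, with 10.2 and 3.66 FPKM in P12 THY1 and P7 THY1 and 5.63 and 23.1 FPKM in P12 KIT and P7 KIT. Cyp26b1, which breaks down retinoic acid, was apart by 2.73, with 20.7 and 5.99 FPKM in P12 THY1 and P7 THY1 and 13.3 and 29.5 FPKM in P12 KIT and P7 KIT. E130203B14Rik was apart by 2.63. Nr5a1, the transcription factor of steroid-making cells, was apart by 2.49, with 18.8 and 7.27 FPKM in P12 THY1 and P7 THY1 and 11.8 and 29.0 FPKM in P12 KIT and P7 KIT.

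Wfdc1 was apart by 2.45 and Gsta2, a glutathione transferase, by 2.27. Tcf21, a transcription factor of testis stroma, was apart by 2.20 and Ogn, a matrix proteoglycan, by 2.19. Wnt6, a WNT ligand, was apart by 2.19, with 10.3 and 4.12 FPKM in P12 THY1 and P7 THY1 and 5.85 and 13.1 FPKM in P12 KIT and P7 KIT. Leydig cell markers moved with these genes in KIT cells, with a list median of -1.13 there and -0.15 in THY1 cells, and so did fibroblast markers, with -0.68 in KIT cells and 0.32 in THY1 cells. Nr5a1 is itself in the Leydig list, and Tcf21 and Ogn are in the fibroblast list. The choice of the flagged genes therefore fixed a part of both medians. The part of Leydig and fibroblast transcripts in the result was not tested.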

How the results depend on the processing

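No paired analysis was possible because each column holds 1 value for 2 libraries, and for the same reason no library could be left out. At 4-fold, 97 genes were higher and 40 lower in P12 THY1. The higher count was 156 with a pseudocount of 0.1, 17 with 5, 12 at 8-fold and 611 at 2-fold. The lower count was 16 with a pseudocount of 5, 12 with at least 1 FPKM in both columns and 232 at 2-fold. Without genes listed at 0, an alternative chosen after seeing the data, the counts were 96 and 30. Under median-ratio, quantile and germ cell scaling they stayed between 89 and 94 higher and 40 and 47 lower, and the direction of every list median outside 0.5 held, though the ribosomal median was -0.36 under quantile scaling. The cause of these moves is the setting itself for thresholds and minimums.

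With P7 VASA THY1 as the P7 value, 378 genes were higher and 23 lower, and the cause was not tested. The list medians became -0.28 for self-renewal, 0.11 for the synaptonemal complex, -0.15 for meiotic cohesin, 0.055 for spermatid genes, 0.40 for lymphocytes, -0.066 for mast cells and granulocytes, 1.72 for endothelium and 0.19 for red cells. The spermatid median was -0.31 with a pseudocount of 5, and the red cell median -0.25 over all members. Sertoli (0.69), mitosis (-0.77) and replication (-0.90) medians kept their direction. Named genes past 2-fold that changed sign against that library were, among the signalling, vessel and steroid genes, Ctgf 2.81, Cyp11a1 3.05, Emcn 3.51, Egr3 2.21, Esm1 1.43, Fzd4 1.03, Id1 2.22, Id3 1.86, Spry4 1.54, Pdgfa 0.43, Pdgfb 0.73, Nr5a1 -0.10 and Wnt6 -0.79. Among blood cell and immune genes they were BC100530 0.27, Cd74 2.56, Gm5483 0.41, Gzmb 1.28, Gzmf 0.66, H2-Aa 1.93, Hbb-b2 0.75, Il2rb 1.33, Isg20 0.84, Ptprc 1.33, S100a8 1.49, S100a9 0.10 and Stfa1 0.72. The rest were Bbc3 0.96, Meg3 0.37, Mest 0.36, Pfkm -0.042, Prm2 0.10, Rps2 0.64, Slc16a3 -0.61, Smc1b -0.15, Tnp2 0.062 and Ybx2 -0.014. Of genes not counted at 2-fold, Bub1 -0.20, Cyp51 0.91, Gdnf 1.65, Hdc 0.50, Lin28a -0.15, Nanos2 -0.47, Neurog3 -0.72, Thy1 0.036 and Zbtb16 0.057 changed sign too. Another 56 counted genes were no longer counted. Of these, Mcpt2, Prm1 and Stfa2l1 had a difference of 0 and the others kept their direction. Unknown depth limits the low values most, and a difference in these columns cannot be set against a spread between libraries.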

Other observations

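Genes on the X chromosome were more frequent among the genes higher in P12 THY1 than among all genes. Of 96 such genes at 4-fold with a known chromosome, 14 lay on X (14.6%), as did 1 of 39 lower genes (2.56%) and 529 of 13352 genes with at least 1 FPKM (3.96%). The 14 include Nxf3, Dmrtc1a, Tsx, Nr0b1, Gata1 and Car5b, and Tsx, Nr0b1 and Gata1 are also Sertoli markers. At 2-fold, 9.83% of X-linked genes and 4.34% of 12814 autosomal genes were higher in P12 THY1, and 1.51% and 1.74% were lower. The median difference was 0.22 for X-linked genes and 0.03 for autosomal genes in THY1 cells, and 0.01 for X-linked genes in KIT cells. The pattern was noticed in these data and not tested, and the part of Sertoli transcripts in it was not tested.

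Imprinted genes, expressed from 1 parental copy, were spread over both directions. Of 19 maternally expressed genes 2 were higher and 2 lower at 2-fold (median 0.03), and of 26 paternally expressed genes 1 was higher and 2 lower (median -0.04). Of all genes, 4.54% were higher and 1.73% lower at 2-fold. Ppp1r9a stood at 30.1 and 10.9 FPKM in P12 THY1 and P7 THY1 (1.39), and Dcn, the matrix proteoglycan decorin, at 155 and 73.6 FPKM in P12 THY1 and P7 THY1 (1.06). The growth-restraining RNA gene H19 stood at 32.1 and 72.6 FPKM in P12 THY1 and P7 THY1 (-1.15), Meg3 at 4.2 and 10.3 FPKM in P12 THY1 and P7 THY1 (-1.12), and Nnat at 4.06 and 15.5 FPKM in P12 THY1 and P7 THY1 (-1.71). Impact was higher (1.15) and Mest lower (-1.0). Across the 14 genes of the imprinted gene network the median was -0.13.

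The other lists held few differences, beside 4.54% of all genes higher and 1.73% lower at 2-fold. DNA methylation genes held none of 18 at 2-fold (median -0.04), with the maintenance methyltransferase gene Dnmt1 at 72.5 and 128 FPKM in P12 THY1 and P7 THY1 (-0.81). G1 cyclins and CDK inhibitors held none of 19 (median -0.21), with the cyclin gene Ccna2 at 41.2 and 76.3 FPKM in P12 THY1 and P7 THY1 (-0.87). Cholesterol genes held none of 18 (median -0.44), with Cyp51, a sterol demethylase, at 42.9 and 83.4 FPKM in P12 THY1 and P7 THY1 (-0.94, but 0.91 against P7 VASA THY1). Oxidative phosphorylation subunits held 1 higher gene of 27 (median -0.12), WNT genes 1 higher and 1 lower of 33 (median -0.04), the lower being the receptor gene Fzd4 (-1.01), and Notch and Hedgehog genes 1 higher of 23 (median -0.16). Immediate early and heat shock genes held 2 lower of 27, Egr2 and Egr3, a related growth factor target at 5.30 and 13.3 FPKM in P12 THY1 and P7 THY1, with a median of -0.38 that became 0.99 against P7 VASA THY1.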
